A study of Homo sapiens with 24 samples.

Results

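PARP14 and 7 genes linked to it by family, partnership or interferon response (PARP9, DTX3L, PARP15, PARP10, PARP12, PARP1 and PARP2) were followed across 24 RNA-seq libraries of HepG2, a human hepatocellular carcinoma cell line. They are 8 of the 26475 gene symbols in the count files and were taken by symbol. PARP14 was selected on its measured level over interferon gamma (IFNγ) and ABBV-075 in these same data, so its values in any comparison that uses the DMSO, ABBV-075, IFNγ or IFNγ + ABBV-075 libraries are given as a description without a test. The rule names a measured pattern for PARP14 alone.

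The study sequenced 8 treatment groups of 3 libraries each. The groups were DMSO (the solvent control), ABBV-075 at 50 nM, ABBV-744 at 50 nM, ABBV-744 at 500 nM, IFNγ alone, and IFNγ together with each of the 3 inhibitor treatments. Every group was the same unmodified cell line, so the libraries represent a single tumour cell line and no other liver cell. The study's methods give a treatment time for DMSO and for ABBV-075, which as written was longer for DMSO, so that time and inhibitor cannot be told apart in that pair. The times of the ABBV-744 and IFNγ treatments and the dose of IFNγ are not given in the sources used here. The labels number the libraries within each group and do not say that they came from separate cultures. The study's methods call the DMSO and ABBV-075 samples independent and experimental triplicates, and they do not describe the ABBV-744 or IFNγ libraries. The p-values therefore measure the spread between these libraries, which may be partly technical.

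PARP enzymes transfer ADP-ribose from NAD+ onto proteins or nucleic acids. PARP1 and PARP2 are activated by DNA breaks and build long ADP-ribose chains, whereas most of the family, PARP14, PARP10 and PARP12 among them, add single units. PARP14, PARP9 and PARP15 carry macrodomains, which bind ADP-ribose, and PARP9 works as a complex with the ubiquitin ligase DTX3L. IFNγ acts through the JAK1 and JAK2 kinases on genes with a gamma-activated sequence (GAS), and through IRF1, which binds interferon-stimulated response elements (ISRE). BET proteins read acetylated histones and help RNA polymerase to elongate. ABBV-075 inhibits both bromodomains of the BET proteins, and ABBV-744 is selective for the second one.

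Each library held 2978982 to 4304103 reads on genes (median 3462418.5), which was 12% to 16.8% of the reads in the file, while reads aligning to several places made up 56% to 69.4%. Levels are given in CPM, reads on each gene's own strand scaled to a total of 1000000 reads on genes, with TMM scaling over all 24 libraries. The hepatocyte markers ALB, APOA1, TTR, AFP, SERPINA1 and TF were detected in all 24 libraries. PTPRC was at 0 in all of them, COL1A1 and PECAM1 reached at most 2 and 5 counts, and CD68 ranged from 7.4 to 22.7 CPM. HEXIM1, which BET inhibitors are known to raise, rose in the ABBV-075 and the 500 nM ABBV-744 libraries against DMSO (log2 fold changes 1.41 and 0.74), and its value was 0.29 at 50 nM ABBV-744, which did not pass the test. The IFNγ-induced gene GBP1 had a log2 fold change of 4.89 with IFNγ.

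Libraries of different groups also differed in how level followed the GC content of genes. The slope of the log2 CPM deviation per 10 percentage points of GC lay between 0.219 and 0.445 in the 3 libraries of ABBV-744 at 50 nM and between -0.299 and -0.27 in those of IFNγ + ABBV-744 at 50 nM, and it was 0.029 to 0.13 in DMSO and 0.059 to 0.233 in IFNγ. It ran from -0.308 to 0.077 in ABBV-075 and from 0.098 to 0.354 in ABBV-744 at 500 nM. With IFNγ added, these ran from -0.259 to -0.044 and from -0.259 to -0.091. The 3 ABBV-075 libraries thus differed among themselves, also in reads aligning to several places (56% to 67.4%). Their spread enters each test that uses them, and its part in the number of genes called was not tested. Exon GC was 0.424 in PARP14, 0.434 in PARP9 and 0.438 in DTX3L, and 0.668 in PARP10. This trend and the groups cannot be told apart, so calls of members that changed with a correction for GC are given with both values.

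Of the 8 genes, 4 lie side by side on chromosome 3 (GRCh38, GENCODE annotation). PARP9 is at chr3:122527924-122564577 on the minus strand, DTX3L at chr3:122564338-122575203 on the plus strand, PARP15 at chr3:122577628-122639047 and PARP14 at chr3:122680839-122730840, both on the plus strand. PARP9 and DTX3L are head to head and overlap by 240 bp at their starts, and the counts used were strand-specific. PARP12 is on chromosome 7 (140023749 to 140062951), PARP1 on chromosome 1 (226360210 to 226408154) and PARP2 on chromosome 14 (20343615 to 20357904).

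The sequences next to the starts of PARP14, of DTX3L with PARP9, and of PARP12 are shown because these genes moved together under IFNγ and each holds a match to an interferon motif. RefSeq windows (GRCh38.p14) of 250 bases before to 50 bases from the start were searched on both strands for TTCNNNGAA, the GAS pattern, and for GAAA, any 2 bases and GAAA again, an ISRE-type pattern. Matches were allowed to overlap. A RefSeq window was found for 7 of the 7 genes searched, PARP10 not being searched. Capitals mark the matches, and each sequence runs 5′ to 3′ on the strand of the named gene. The first covers the 150 bases before the start of PARP14 (chr3:122680689-122680838, plus strand), the next 30 bases around the start of DTX3L (chr3:122564322-122564351, plus strand), and the last 30 bases around the start of PARP12 (chr7:140062942-140062971, minus strand).
PARP14: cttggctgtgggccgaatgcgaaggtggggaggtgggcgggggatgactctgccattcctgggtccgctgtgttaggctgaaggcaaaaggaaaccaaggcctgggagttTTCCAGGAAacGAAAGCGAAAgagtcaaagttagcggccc
DTX3L: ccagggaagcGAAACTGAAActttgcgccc
PARP12: ccggggccgcTTTCGGTTTCgtttcccgcc

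The PARP14 window held a GAS match at chr3:122680799-122680807 and, 2 bases further on, an ISRE-type match at chr3:122680810-122680819. The ISRE-type match of DTX3L (chr3:122564332-122564341) also lay upstream of 1 of the 2 PARP9 starts in the table, on the opposite strand, so both genes share it. PARP12 had its match directly before the start (chr7:140062952-140062961), on the strand opposite to the gene. No match to either pattern was found in the PARP1 window. The PARP2 window held a GAS match at chr14:20343481-20343489, and 1 of the PARP15 windows held another (chr3:122577599-122577607). Among all 35116 windows of the table, 7.66% held the GAS pattern, 3.57% the ISRE-type pattern and 0.439% both, so the matches describe these sequences and are not evidence of binding.

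PARP14 was the member with the widest range of levels, from 10.7 to 395 CPM. It was at 28.6, 24.2 and 25 CPM in the DMSO libraries and at 180, 192 and 177 CPM with IFNγ. IFNγ with ABBV-075 gave 267, 235 and 237 CPM, IFNγ with ABBV-744 gave 395, 374 and 359 CPM at 50 nM and 390, 360 and 303 CPM at 500 nM. Every library with IFNγ was above every library without it, and every library with IFNγ and an inhibitor was above every library with IFNγ alone. Without IFNγ the order was the other way round. PARP14 was at 15.9, 15.8 and 12.6 CPM with ABBV-075, 23.5, 10.7 and 18.7 CPM with ABBV-744 at 50 nM, and 21.2, 12.2 and 12.9 CPM at 500 nM, all below the DMSO libraries. These low levels rest on 34 to 79 reads per library, against 986 to 1639 with IFNγ and ABBV-744.

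By group mean, PARP14 was highest with IFNγ + ABBV-744 at 50 nM (376 ± 17.8 CPM, SD, n = 3) and at 500 nM (351 ± 44.3), whose libraries overlapped. IFNγ + ABBV-075 followed at 246 ± 18 CPM, IFNγ at 183 ± 7.93 and DMSO at 25.9 ± 2.38, and none of these neighbours overlapped. The 3 inhibitors without IFNγ stood last, between 14.8 and 17.6 CPM, and overlapped each other.

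**Figure D1:**
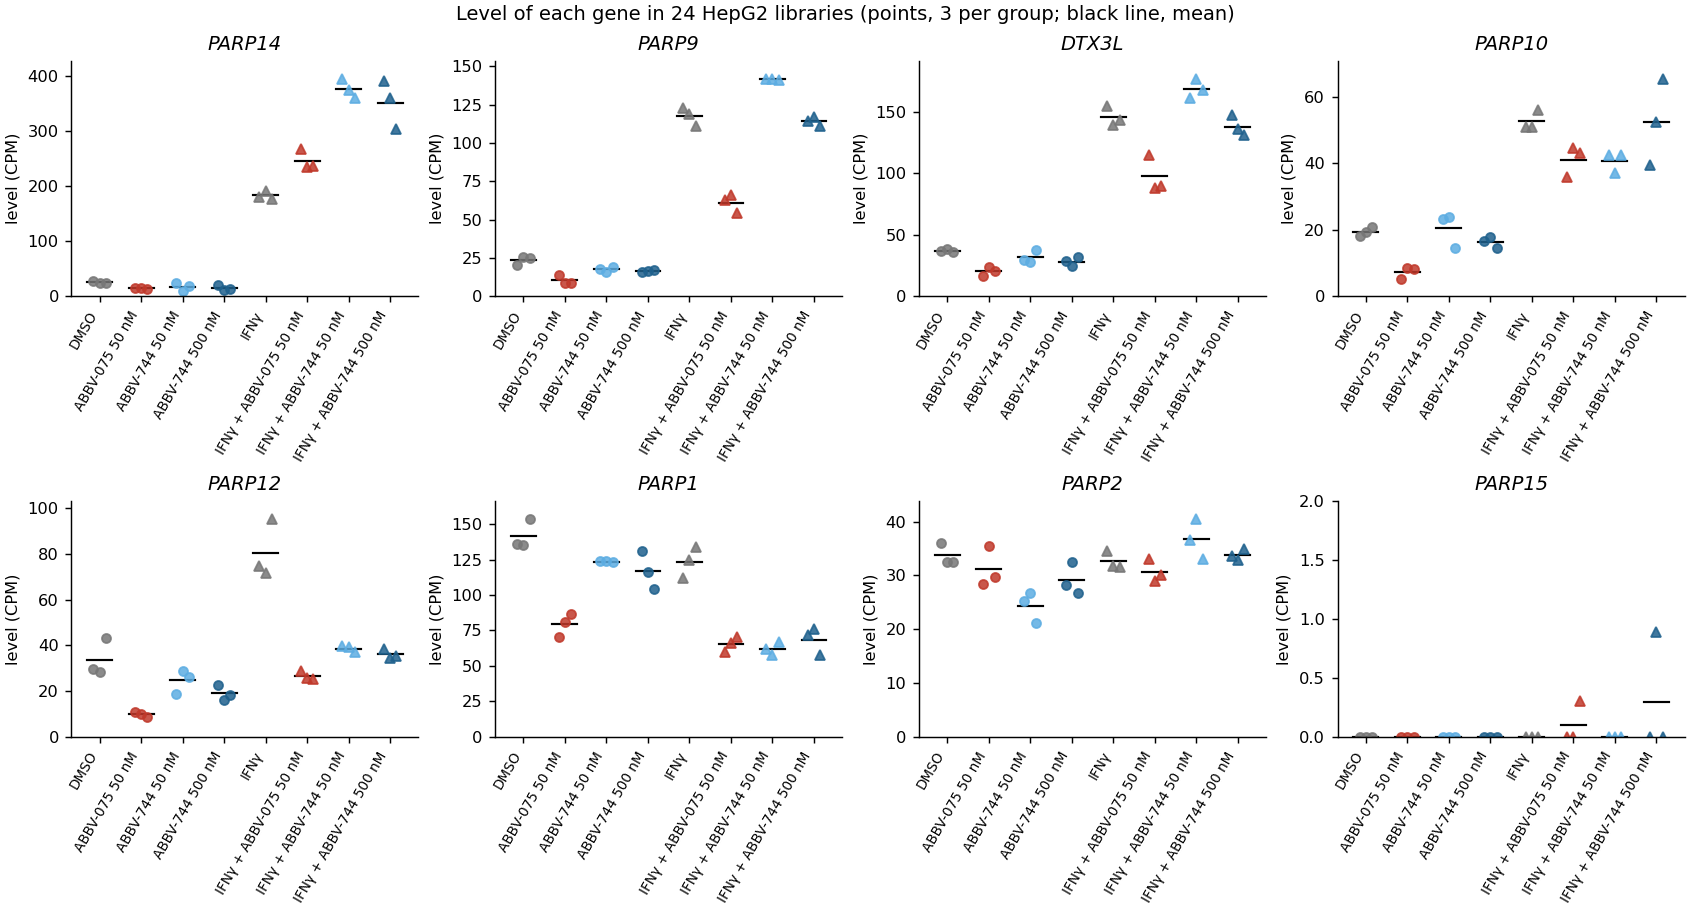
Level in CPM (vertical axis, linear, a separate scale per gene) of the 8 genes in each of the 24 libraries (points, 3 per group) with the group mean (black line); circles are groups without IFNγ and triangles groups with it. PARP14 stood at 303 to 395 CPM with IFNγ and ABBV-744, above IFNγ alone at 177 to 192 CPM, whereas PARP12 stood lower with IFNγ and any inhibitor than with IFNγ alone, and PARP15 was at or near 0.

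PARP9 and DTX3L, the partners encoded next to each other, tracked each other across the libraries (Pearson r = 0.985 on log2 CPM over 24 libraries that share 8 treatments and their depths, given as a description). PARP9 was at 20.3, 25.5 and 25 CPM in DMSO and 123, 119 and 111 CPM with IFNγ. With IFNγ + ABBV-075 it was at 62.8, 66.2 and 54.1 CPM, with IFNγ + ABBV-744 at 142, 142 and 141 CPM (50 nM) and at 114, 117 and 111 CPM (500 nM). The ABBV-075 combination was the only one of the 3 whose libraries all lay below IFNγ alone. ABBV-075 without IFNγ took PARP9 to 13.7, 8.88 and 9 CPM, the lowest of any group.

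DTX3L, the ubiquitin ligase, was at 37.2, 38.3 and 35.7 CPM in DMSO and 155, 139 and 143 CPM with IFNγ. It was at 115, 88.2 and 89.9 CPM with IFNγ + ABBV-075, at 161, 177 and 168 CPM with IFNγ + ABBV-744 at 50 nM and at 147, 136 and 131 CPM at 500 nM. The order of groups for DTX3L was that of PARP9: IFNγ + ABBV-744 at 50 nM highest, then IFNγ and IFNγ + ABBV-744 at 500 nM, which overlapped, then IFNγ + ABBV-075. Between 1 and 36 reads per library were counted on the strand opposite to PARP9, the strand of DTX3L, and 0 to 6 opposite to DTX3L.

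PARP10 and PARP12 add single ADP-ribose units, PARP10 in the cytoplasm and nucleus and PARP12 mainly at the Golgi and in stress granules. PARP10 is on chromosome 8 (143977153 to 144012772). PARP10 rose from 18.2, 19.3 and 20.7 CPM in DMSO to 50.9, 51 and 56.1 CPM with IFNγ. It was lowest with ABBV-075 alone, at 5.3, 8.6 and 8.1 CPM, and the 4 IFNγ groups overlapped their neighbours in the order of means (40.6 to 52.7 CPM). PARP12 was at 29.7, 28.1 and 43.1 CPM in DMSO and at 74.6, 71.6 and 95.5 CPM with IFNγ. It stood at 28.5, 25.5 and 25 CPM with IFNγ + ABBV-075, 39.5, 39.2 and 37 CPM with IFNγ + ABBV-744 at 50 nM and 38.2, 34.6 and 35.3 CPM at 500 nM. PARP12 with IFNγ and an inhibitor thus stood at or near its level in DMSO, apart from IFNγ alone, and ABBV-075 alone gave 10.6, 9.74 and 8.7 CPM.

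PARP1, the main DNA-break-activated polymerase, was highest in DMSO (136, 135 and 154 CPM) and at 112, 125 and 134 CPM with IFNγ. It was at 60, 66 and 70.4 CPM with IFNγ + ABBV-075, 61.6, 57.8 and 66.5 CPM with IFNγ + ABBV-744 at 50 nM and 71.4, 75.8 and 57.4 CPM at 500 nM. ABBV-744 alone left PARP1 at 123 to 124 CPM at 50 nM and 104 to 131 CPM at 500 nM. PARP2, its close relative, had the narrowest spread, with group means from 24.4 to 36.8 CPM and overlap between every pair of neighbours in the order. PARP15, a macrodomain enzyme, had no read in 22 libraries, 1 read in an IFNγ + ABBV-075 library and 3 in an IFNγ + ABBV-744 500 nM library. A count of 0 allows up to 3 reads, 0.665 to 0.997 CPM depending on the library (counting error only), so PARP15 was not detectable above that level and was not tested.

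The first question was how IFNγ alone changed these genes. PARP9, DTX3L, PARP10 and PARP12 rose, and PARP1 and PARP2 did not pass the test. PARP9 rose 4.95-fold (log2 fold change 2.31, SE 0.11, adjusted p = 6.01e-19) and DTX3L 3.93-fold (1.97, SE 0.1, adjusted p = 1.42e-18) by the quasi-likelihood test of edgeR, adjusted over all genes after Benjamini and Hochberg, which is the test behind every adjusted p given here. PARP10 rose 2.7-fold (log2 fold change 1.44, SE 0.13, adjusted p = 5.02e-11) and PARP12 2.39-fold (1.26, SE 0.13, adjusted p = 2.87e-09). The value for PARP1 was -0.2 (adjusted p = 0.295) and for PARP2 -0.05 (adjusted p = 0.914). Thus 4 of the 6 genes tested rose, where 2.76% of all 11217 genes did. Members were picked partly for their interferon response, so a share above that of all genes follows in part from the choice. The same holds for the member shares in the other comparisons with and without IFNγ. PARP14 was 7.06-fold higher (log2 fold change 2.82, 95% CI 2.61 to 3.03), as a description. In bulk RNA, a change in the share of cells that express a gene and a change in its RNA per expressing cell cannot be told apart.

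The same IFNγ response was then measured within each inhibitor. Under ABBV-075 the same 4 genes rose: PARP9 5.84-fold, DTX3L 4.86-fold, PARP10 5.75-fold and PARP12 2.76-fold (adjusted p = 3.85e-06 to 0.000548, edgeR), where 1.01% of genes rose. PARP14 was 16.9-fold higher there, as a description. The ABBV-744 libraries had no part in the choice of PARP14, so PARP14 was tested within them. It rose 21.3-fold at 50 nM (log2 fold change 4.41, SE 0.16, adjusted p = 2.31e-13) and 22.5-fold at 500 nM (4.49, SE 0.16, adjusted p = 1e-14), and with GC correction the log2 fold changes were 3.99 and 4.25. The rise was present in 3 of 3 libraries at each dose.

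In the ABBV-744 backgrounds a large share of all genes passed the test, so the size of the change separates the members better than the call. At 50 nM, 30.4% of genes rose with IFNγ and 29.8% fell, and at 500 nM 22.6% rose and 18.3% fell. The libraries of ABBV-744 at 50 nM had 66.2% to 69.4% of reads aligning to several places and 14.8% to 17.3% on no gene, against 57.5% to 59.6% and 22.8% to 24.1% with IFNγ added, and the part of this in the result was not tested. At 50 nM all 7 members tested were called, PARP1 lower and the other 6 higher, and at 500 nM 5 were higher, PARP1 was lower and PARP2 was not called. PARP14, PARP9 and DTX3L rose past the log2 fold change of 1.5 that the study used, 3 of 7 members where 5.11% of genes did so at 50 nM, and with PARP10 they made 4 of 7 where 1.99% did so at 500 nM. Both counts include PARP14, picked for its IFNγ pattern in other libraries, so they are a description of genes chosen as interferon-linked. PARP9 rose 8.05-fold and 6.83-fold at the 2 doses and DTX3L 5.33-fold and 4.84-fold. PARP1 fell by 0.99 and by 0.78 on the log2 scale (adjusted p = 3.01e-07 and 4.24e-05, edgeR). At 50 nM PARP2 rose 1.51-fold (log2 fold change 0.59, adjusted p = 0.00177).

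**Figure D2:**
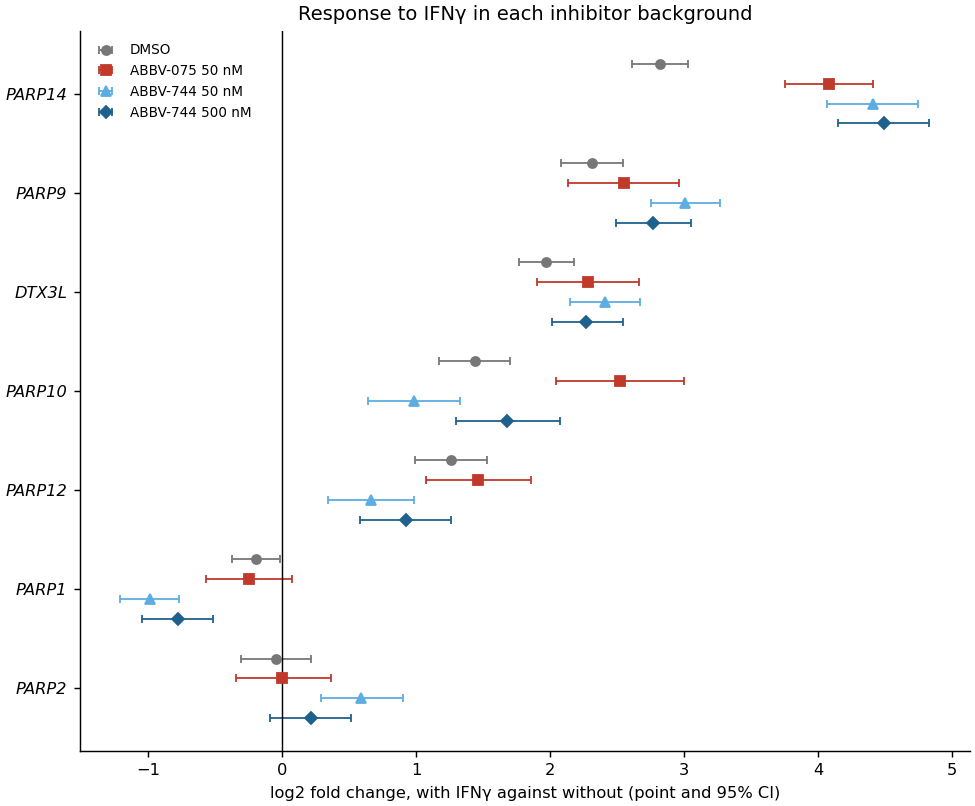
Log2 fold change of 7 genes with IFNγ against without it (horizontal axis; points with 95% CI) in 4 backgrounds, DMSO (circles), ABBV-075 at 50 nM (squares) and ABBV-744 at 50 nM (triangles) and 500 nM (diamonds). PARP14 lay at 2.82 in DMSO and at 4.08 to 4.49 with an inhibitor, while PARP1 lay at -0.99 and -0.78 with ABBV-744.

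Whether an inhibitor changed the IFNγ response was tested as a difference of the 2 responses. These differences share the DMSO and IFNγ libraries. For ABBV-075, 0 of the 6 members tested were called by edgeR, 0 by DESeq2 and 1 at an unadjusted p under 0.05, and 0.0347% of all genes were called. PARP10 had the largest value there among the tested members, a difference of 1.06 (95% CI 0.55 to 1.56, adjusted p = 0.208). It was called with GC correction (0.97, adjusted p = 0.0498) and without the filter on low counts (1.07, adjusted p = 0.0241). For PARP14 the response was larger by 1.23 under ABBV-075, by 1.56 under ABBV-744 at 50 nM and by 1.68 at 500 nM (log2 scale, description), or 1.22, 1.11 and 1.36 with GC correction.

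Under ABBV-744 at 50 nM, the log2 IFNγ response was higher for 3 of the 6 tested members, where 25% of genes had a higher one. It was lower, meaning less positive or more negative, for 2, where 26.5% of genes had a lower one. For PARP1, whose response was -0.2 in DMSO and -0.99 under ABBV-744 at 50 nM, lower means a larger fall. PARP9 was larger by 0.67 (adjusted p = 0.00188), DTX3L by 0.41 (adjusted p = 0.0284) and PARP2 by 0.61 (adjusted p = 0.00763), while PARP12 and PARP1 were lower with differences of -0.63 and -0.82 (adjusted p = 0.0217 and 1.34e-05, edgeR). With GC correction the differences of PARP9 and DTX3L were 0.35 and 0.16 and that of PARP12 was -0.15, none of them called. The DTX3L call was also lost in 6 and the PARP12 call in 5 of the 12 fits that left out a library (adjusted p of up to 0.0796 and 0.0783), and PARP12 was not called by DESeq2 (adjusted p = 0.063) or with scaling by library size only (adjusted p = 0.138). At 500 nM, 18.5% of genes had a higher response and 15% a lower one. PARP9 had a higher one (0.46, adjusted p = 0.0407) and PARP1 a lower one, a larger fall (-0.58, adjusted p = 0.00429, edgeR). Neither was called with GC correction (0.27 and -0.34), and the call of PARP9 was lost in 9 of the 12 fits that left out a library (adjusted p of up to 0.103) and by DESeq2 (adjusted p = 0.0658).

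The inhibitors were also compared with their controls. Members were chosen with earlier results of these data known, so the member shares in these inhibitor comparisons may follow in part from the choice. Without IFNγ, ABBV-075 lowered PARP9, DTX3L, PARP10, PARP12 and PARP1, 5 of the 6 genes tested, where 19.6% of all genes fell. PARP12 fell by 1.81 on the log2 scale (SE 0.21, adjusted p = 6.44e-05), PARP10 by 1.44 (SE 0.22, adjusted p = 0.000401), PARP9 by 1.17 (SE 0.21, adjusted p = 0.00114), DTX3L by 0.88 (SE 0.16, adjusted p = 0.00144) and PARP1 by 0.86 (SE 0.13, adjusted p = 0.000316, edgeR). PARP2 had a value of -0.14 (95% CI -0.46 to 0.19). PARP14 was lower by the same sign, with a value of -0.83 (95% CI -1.2 to -0.45) as a description.

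ABBV-744 was then set against DMSO without IFNγ. At 50 nM, 1 of 6 was called, PARP2 lower (-0.45, adjusted p = 0.0347), where 10.1% of genes fell, and this call was lost in 4 of the 6 fits that left out a library (adjusted p = 0.0899 to 0.136) and by DESeq2 (adjusted p = 0.0921). With GC correction PARP2 was not called (-0.39, adjusted p = 0.0644) and PARP12 was called lower (-0.6, adjusted p = 0.0159). At 500 nM, 2 of 6 fell, PARP12 by 0.82 (SE 0.18, adjusted p = 0.00161) and PARP9 by 0.51 (SE 0.17, adjusted p = 0.0403), where 7.8% of genes fell. PARP9 was not called there without DMSO replicate 2 or 3 or without ABBV-744 500 nM replicate 1 or 3 (adjusted p = 0.0798 to 0.179), nor by DESeq2 (adjusted p = 0.156). With GC correction PARP1 was called lower as well (-0.31, adjusted p = 0.00926). PARP14 was at -0.54 and -0.73, as a description, and its value at 50 nM ranged from -0.79 to -0.28 when single libraries were left out.

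With IFNγ present, PARP14 and the other genes had opposite signs under ABBV-075. Against IFNγ alone, ABBV-075 lowered the same 5 genes, where 28.8% of all genes fell. PARP12 fell by 1.62 (SE 0.13, adjusted p = 2.21e-13), PARP9 by 0.96 (SE 0.11, adjusted p = 1.51e-09), PARP1 by 0.93 (SE 0.11, adjusted p = 2.73e-09), DTX3L by 0.59 (SE 0.11, adjusted p = 1.04e-05) and PARP10 by 0.38 (SE 0.13, adjusted p = 0.013, edgeR). The call of PARP10 was lost without IFNγ + ABBV-075 replicate 1 (-0.26, adjusted p = 0.101) and by DESeq2 (adjusted p = 0.0642). PARP14 was higher by 0.41 (95% CI 0.23 to 0.6), or 0.26 with GC correction, as a description. PARP9 and DTX3L, the neighbours of PARP14 that also rose with IFNγ, kept their direction with GC correction, with values of -1.03 and -0.62.

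ABBV-744 was set against IFNγ alone in the same way. At 50 nM, PARP14 was higher than with IFNγ alone by 1.06 (0.74 with GC correction, description), and PARP9 and DTX3L rose by 0.29 and 0.23 (adjusted p = 0.00718 and 0.0268), 2 of 6 where 27.4% of genes rose. With GC correction these 2 values were 0.07 and 0.05 and not called. The DTX3L call was also lost without IFNγ replicate 2 or 3 or without IFNγ + ABBV-744 50 nM replicate 2 or 3 (adjusted p of up to 0.115, edgeR). It was lost as well with all 24 libraries in 1 fit (adjusted p = 0.134, edgeR). PARP12 fell by 1.04, PARP1 by 0.98 and PARP10 by 0.35 (adjusted p = 5.73e-09, 7.35e-10 and 0.0111, edgeR), 3 of 6 where 24.3% of genes fell, and PARP10 was at -0.07 and not called with GC correction, nor by DESeq2 (adjusted p = 0.0502). At 500 nM, PARP14 was higher by 0.92 (0.72 with GC correction, description), and the calls were PARP12, which fell by 1.18, and PARP1, which fell by 0.87 (adjusted p = 6.05e-09 and 1.33e-07), 2 of 6 where 22.8% of genes fell. PARP9 and DTX3L were at -0.06 and -0.1. The 3 comparisons with IFNγ alone share the same 3 IFNγ libraries.

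**Figure D3:**
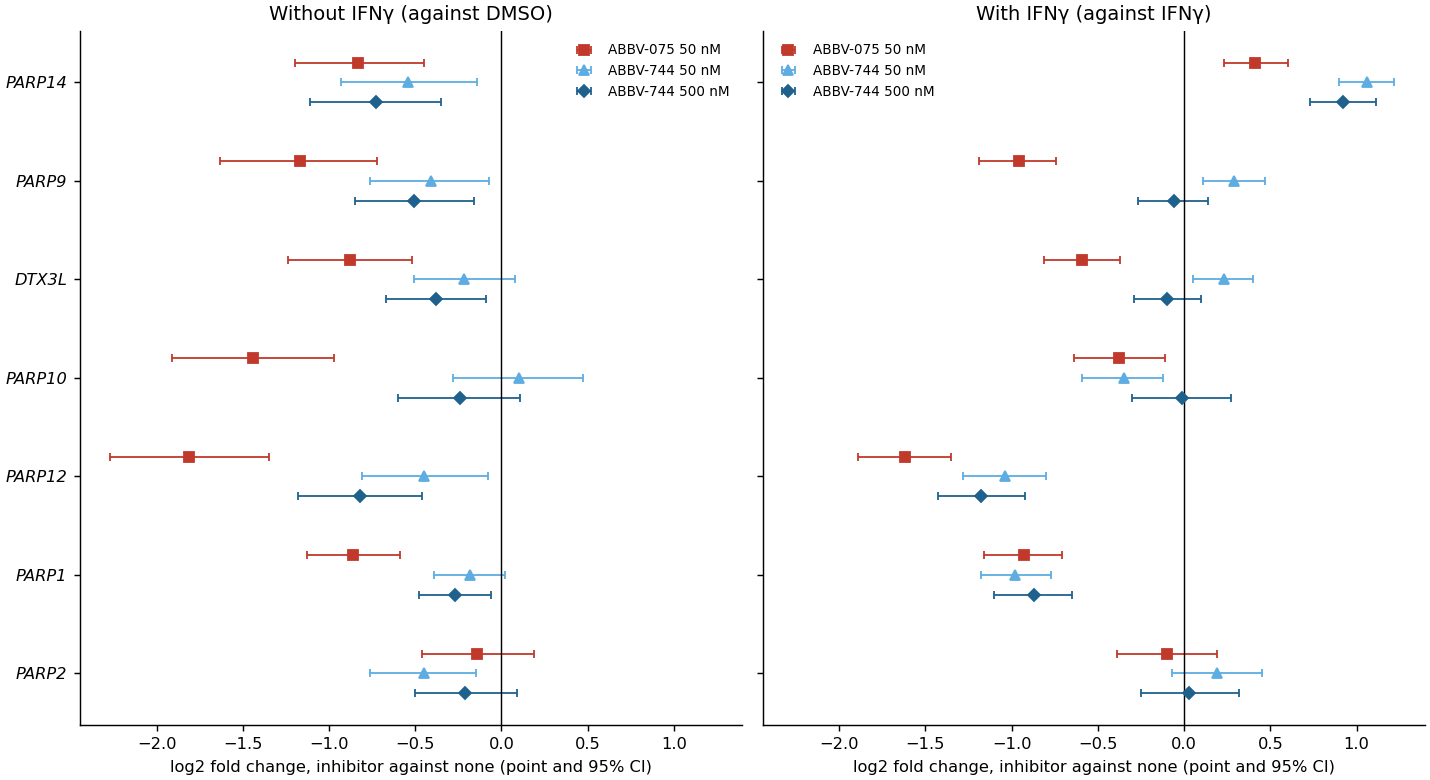
Log2 fold change of 7 genes with an inhibitor against its control (horizontal axis; points with 95% CI), without IFNγ on the left and with IFNγ on the right; squares are ABBV-075, triangles and diamonds ABBV-744 at 50 and 500 nM. PARP14 lay at -0.83 to -0.54 without IFNγ and at 0.41 to 1.06 with it, while PARP12 lay below 0 in both panels.

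**Figure D4:**
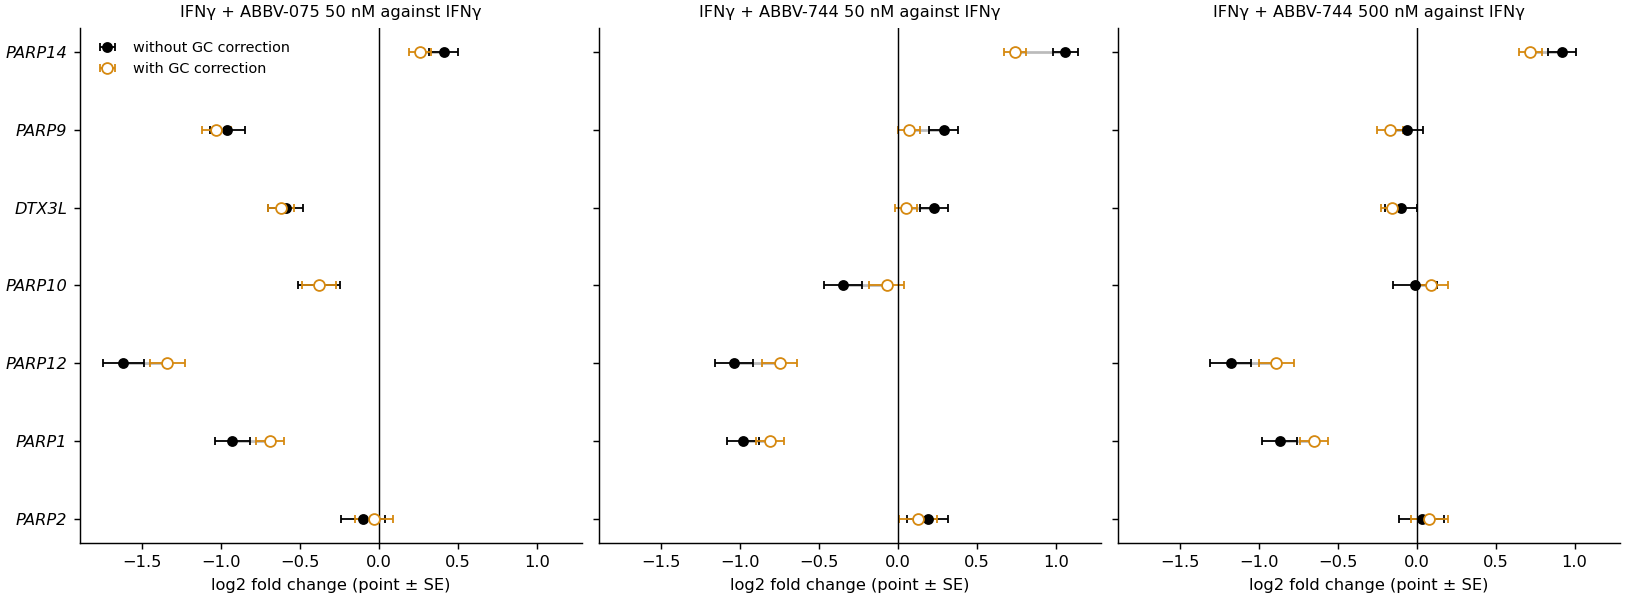
Log2 fold change (horizontal axis, point ± SE) of the same 7 genes for each inhibitor with IFNγ against IFNγ alone, without (filled) and with (open) correction for GC content. PARP12, PARP1 and PARP14 kept their direction in all 3 panels, while PARP9, DTX3L and PARP10 moved to between -0.07 and 0.07 with ABBV-744 at 50 nM.

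The pan-BET and the selective inhibitor were compared directly at the same concentration of 50 nM. HEXIM1 was higher with ABBV-075 than with ABBV-744 there, by 1.14 without IFNγ and by 1.49 with it. Whether the 2 inhibited BET proteins to the same degree was not tested, and the time of ABBV-744 is not given. Without IFNγ, ABBV-075 left PARP10 (-1.51), PARP12 (-1.34), PARP9 (-0.74), PARP1 (-0.65) and DTX3L (-0.64) below ABBV-744 on the log2 scale (adjusted p = 0.00194 to 0.0253, edgeR), 5 of 6 where 19.4% of genes were lower. The calls of PARP9 and DTX3L were each lost when certain single libraries were left out (adjusted p of up to 0.113 and 0.104), and by DESeq2 (adjusted p = 0.0764 and 0.0549). PARP2 differed by 0.34 (95% CI -0.03 to 0.72). With IFNγ, PARP9 was lower with ABBV-075 by 1.16 (adjusted p = 8.18e-13), DTX3L by 0.73 (adjusted p = 6.21e-08) and PARP12 by 0.5 (adjusted p = 0.00333), 3 of 6 where 17% of genes were lower. PARP1 and PARP10 differed by 0.12 (95% CI -0.1 to 0.35) and 0.06 (95% CI -0.2 to 0.32), and PARP10 was at -0.29 and called lower with GC correction. PARP14 was lower with ABBV-075 by a log2 difference of -0.56 with IFNγ and -0.26 without it, as a description.

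The IFNγ response itself also differed between the 2 inhibitors at 50 nM. On the log2 scale it was higher under ABBV-075 for 3 of 6 members, where 15% of genes had a higher response. These were PARP10 (by 1.56, 95% CI 0.96 to 2.17, adjusted p = 0.00431), PARP12 (by 0.83, adjusted p = 0.0134) and PARP1 (by 0.77, adjusted p = 0.00531, edgeR). For PARP1 higher means a smaller fall, -0.25 under ABBV-075 and -0.99 under ABBV-744. The response was lower for PARP2 (-0.57, adjusted p = 0.0427), 1 of 6 where 20.3% had a lower one. With GC correction PARP12 (0.45) and PARP2 (-0.43) were not called, and the PARP2 call was also lost in 10 of the 12 fits that left out a library (adjusted p of up to 0.151) and by DESeq2 (adjusted p = 0.0513). For PARP14 the difference was -0.31, or 0.11 with GC correction, so its direction depended on the correction.

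No member differed between the 2 doses of ABBV-744 by the adjusted test. Without IFNγ, 0 of 7 members differed between 500 and 50 nM by edgeR, by DESeq2 and at an unadjusted p under 0.05, where 0.0274% of all genes were called. PARP14 differed by -0.19 (95% CI -0.73 to 0.35, adjusted p = 0.912). With IFNγ, 0 of 7 were called by edgeR and by DESeq2, where 1.7% of genes were, and 3 had an unadjusted p under 0.05. Those 3 were PARP9 (-0.29, 95% CI -0.46 to -0.11), DTX3L (-0.26, 95% CI -0.43 to -0.09) and PARP10 (0.4, 95% CI 0.13 to 0.68), named after their values were seen. Without IFNγ + ABBV-744 500 nM replicate 1, DTX3L and PARP10 were called (-0.29 and 0.58, adjusted p = 0.0483 and 0.00185). PARP14 differed by -0.07 (95% CI -0.24 to 0.09, adjusted p = 0.728) with IFNγ. The difference in IFNγ response between the doses was called for 0 of 7 members by edgeR and by DESeq2, where 0.0264% of genes were, and 1 had an unadjusted p under 0.05, PARP10 (0.71, 95% CI 0.16 to 1.25). For PARP14 it was 0.09 (95% CI -0.46 to 0.65).

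Ratios between the chromosome 3 neighbours show the same data within each library. On CPM per kilobase of annotated exon, the level of PARP14 was 0.973 ± 0.219 times that of PARP9 in DMSO (SD, n = 3) and 1.35 ± 0.0714 times with IFNγ. It was 3.53 ± 0.391 times with IFNγ + ABBV-075, 2.31 ± 0.11 times with IFNγ + ABBV-744 at 50 nM and 2.68 ± 0.31 times at 500 nM, and no library of these 3 groups overlapped the other 5 groups. Against DTX3L, PARP14 went from a ratio of 0.393 ± 0.0392 in DMSO to 0.706 ± 0.0632 with IFNγ and 1.25 to 1.42 with IFNγ and an inhibitor. The ratio of PARP9 to DTX3L stayed between 0.348 and 0.543 in all groups. The exon length sets the size of each ratio but not its change between groups, and the libraries include those that chose PARP14, so the ratios are a description.

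**Figure D5:**
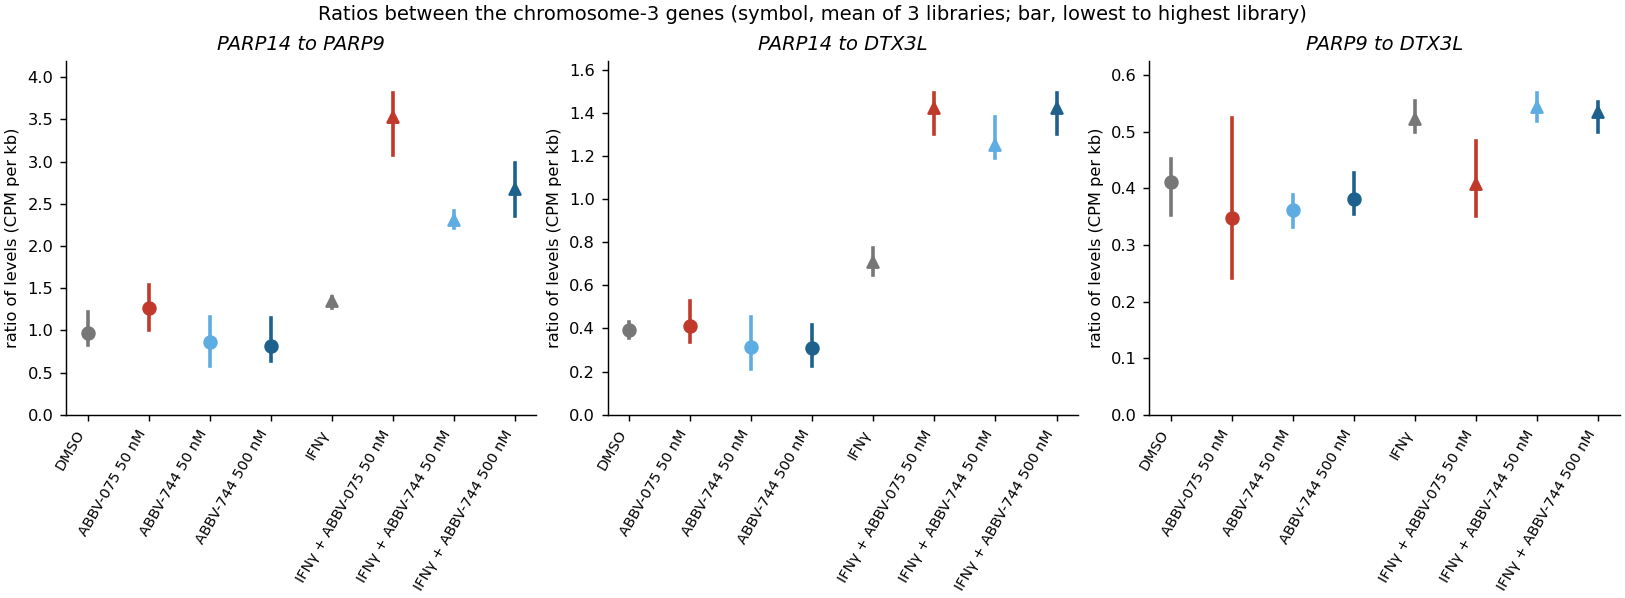
Ratio of CPM per kilobase (vertical axis, linear from 0) between PARP14 and PARP9, PARP14 and DTX3L, and PARP9 and DTX3L in the 8 groups; symbols are means of 3 libraries and bars run from the lowest to the highest library. PARP14 to PARP9 was 2.21 or more in each library with IFNγ and an inhibitor and 1.54 or less elsewhere, while PARP9 to DTX3L stayed between 0.241 and 0.568.

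The genes most like PARP14 over all 24 libraries, by Pearson r on log2 CPM among 11675 genes, included ERAP2, NMI, SP100, LAP3, XAF1, IFIT3, APOL6, NLRC5 and IRF1 (r = 0.984 down to 0.966 over the first 10). DTX3L ranked 11 (r = 0.965) and PARP9 18 (r = 0.955), followed by PARP10 at 111, PARP12 at 966 and PARP2 at 1924, and PARP1 had r = -0.616. All points share the 8 treatments, so r mostly reflects the IFNγ groups, and 6 of the first 10 genes were also among the 10 most like PARP14 in the 12 ABBV-744 libraries. By Spearman rho over all 24 libraries 4 of the 10 were shared, and DTX3L ranked 38, PARP9 29 and PARP10 678. Among these genes, the mean of APOL6 was 529 CPM with IFNγ and 310 with ABBV-075 added, below IFNγ as in PARP9, and 606 and 503 with ABBV-744 at 50 and 500 nM. XAF1 was at 27.4 CPM with IFNγ, 19.3 with ABBV-075 added and 65.1 and 54.4 with ABBV-744 at 50 and 500 nM. ERAP2 was at 90.6, 77.9, 177 and 135 CPM in the same order. By mean, SP100 was higher with each inhibitor added, as in PARP14. It was at 46.4 CPM (SD 3.69) with IFNγ, 51.3 (SD 8.2) with ABBV-075 added and 65.9 and 55.8 with ABBV-744 at 50 and 500 nM. IRF1 was at 229, 224, 220 and 206 CPM in that order.

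The IFNγ pathway itself was described by 12 genes chosen for their role. IFNγ raised 6 of 12, where 2.76% of all genes rose, and their list median log2 fold change was 0.7 against 0 over all genes. The transcription factors IRF1 (4.26), IRF9 (3.25) and STAT2 (1.76), the feedback inhibitor SOCS1 (1.53) and STAT3 (0.7) were among those that rose. With ABBV-075 added to IFNγ, the kinases JAK2 (0.86) and JAK1 (0.37), neither of them called with IFNγ alone, rose. IRF9 fell by 0.82, STAT2 by 1.37, SOCS3 by 1.42 and the receptor chain IFNGR2 by 0.87, and IRF1 was at -0.05 (adjusted p = 0.7), so that 3 of 12 rose and 4 fell, where 27.9% of all genes rose and 28.8% fell, with a list median of 0 beside -0.01 over all genes. With ABBV-744 added at 50 nM, 3 of 12 rose and 5 fell, where 27.4% of all genes rose and 24.3% fell, and at 500 nM 2 rose, JAK2 among them, and 5 fell, where 22.9% of all genes rose and 22.8% fell. IRF1 was at -0.04 and -0.16 at the 2 doses.

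The 7 other annotated genes of the locus in the files, with a body within 300000 bp of PARP14, were set beside it. With IFNγ against DMSO, 0 of the 6 tested were called by edgeR, 0 by DESeq2 and 0 at an unadjusted p under 0.05, with a median of -0.11. Of all genes, 2.76% rose there, so 0 calls among so few genes do not set them apart from all genes. With ABBV-075 and IFNγ against IFNγ, 2 of 5 tested rose where 27.9% of all genes did, KPNA1 (0.64) and WDR5B (0.52), and with ABBV-744 at 50 nM and IFNγ against IFNγ 3 of 6 rose where 27.4% of all genes did, CCDC58 (0.86), KPNA1 (0.6) and FAM162A (0.37), with a median of 0.37 beside -0.02 over all genes.

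Of the 10 other ADP-ribosyltransferase genes in the files 8 were tested. With IFNγ against DMSO 0 were called by edgeR and by DESeq2, where 2.76% of all genes rose, and 3 had an unadjusted p under 0.05 (median -0.1). With ABBV-075 and IFNγ against IFNγ, 4 of 8 rose and 2 fell, where 27.9% of all genes rose and 28.8% fell, the tankyrase TNKS2 by 0.99, PARP11 by 0.84, TIPARP by 0.42 and TNKS by 0.36 upwards, while PARP3 fell by 0.73 and the antiviral protein ZC3HAV1 by 0.43. TNKS2 and PARP11 also rose with both doses of ABBV-744 and IFNγ (0.94 and 0.92 for TNKS2, 0.94 and 0.91 for PARP11). Of all genes, 27.4% rose at 50 nM and 22.9% at 500 nM. The values of the listed genes and of the locus neighbours are given without GC correction.

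Partners of PARP1 in single-strand break repair were described beside its fall. With IFNγ and ABBV-075 against IFNγ, 3 of 8 fell where 28.8% of all genes did, LIG3 (-0.78), XRCC1 (-0.73) and CHD1L (-0.42). This count is near the share of all genes and is not read as a trait of the repair genes. HPF1 (listed as C4orf27), which directs PARP1 to serine, rose by 0.76, where 27.9% of all genes rose. The list median was -0.39 beside -0.01 over all genes. LIG3 and XRCC1 also fell with IFNγ and ABBV-744 at 50 nM (-0.63 and -0.75) and 500 nM (-0.68 and -0.79). Of all genes, 24.3% and 22.8% fell at these 2 doses. Among the 4 tested hydrolases that remove ADP-ribose, PARG rose in all 3 of these comparisons (0.98, 0.89 and 0.71). OARD1 also rose with IFNγ and ABBV-744 at 50 nM against IFNγ (0.52). Of all genes, 27.9%, 27.4% and 22.9% rose in these comparisons, so these few calls are not read as a trait of the hydrolases. ADPRS (listed as ADPRHL2) rose with IFNγ against DMSO (0.66), where 2.76% of all genes rose. The DTX3L relative DTX3 fell with ABBV-075, by 2.58 without IFNγ and by 1.89 with it, where 19.6% and 28.8% of all genes fell. It also fell with ABBV-744 at 500 nM, with values of -0.93 without IFNγ and -0.74 with it, where 7.8% and 22.8% fell. DTX4 fell with IFNγ and ABBV-075 against IFNγ as well (-0.49). With IFNγ against DMSO 0 of the 3 tested deltex relatives were called by edgeR and by DESeq2, where 2.76% of all genes rose, and 1 had an unadjusted p under 0.05. For the repair genes the counts with IFNγ against DMSO were 0 of 8 by both tools and 0 at an unadjusted p under 0.05. With 2.76% of all genes rising there, these counts of 0 do not set the repair genes or deltex relatives apart.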

How the data were processed

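For each library the authors deposited raw read counts per gene symbol, without normalization, after trimming (Trimmomatic) and STAR alignment to GRCh38. The submitters' processing notes give Trimmomatic 0.33 and STAR 2.7.1. The columns are laid out as in the gene count output of STAR, so reads aligning to several places are not in them. The column for each gene's own strand was used, and rows of reads on no gene were left out of library sizes. The annotation the authors counted on is not given in the sources used here.

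Comparisons were fitted with edgeR 4.0.16 in R 4.3.3 (filterByExpr, TMM, glmQLFit and glmQLFTest, Benjamini-Hochberg adjustment over all genes tested) on the libraries of the groups compared only. A gene was called at an adjusted p of at most 0.05. Differences between responses were interaction terms over 4 groups. Levels used TMM over all 24 libraries, and log2 CPM a prior count of 2. Positions, exon lengths and GC came from GENCODE 44, in which 24531 of 26475 symbols had a GC value. Exon length is the union over all annotated transcripts.

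Alternatives were DESeq2 1.42.0 (the study's tool), scaling by RLE or by library size alone, the low-count filter removed or set to 10 counts per library, both strands together, all 24 libraries in 1 fit, the replicate number as a block, a GC correction (a lowess curve with span 0.3 in each library, as an offset), that correction with the block, and each library left out in turn. The edgeR fit was tested on simulated data. Figures were drawn with matplotlib 3.10.9 in Python 3.11.15.

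Genes named are the 8 members, genes of lists chosen for their role (other ADP-ribosyltransferases, ADP-ribose hydrolases, single-strand break repair, deltex ligases, IFNγ signalling, treatment checks and cell type markers), genes within 300000 bp of PARP14 and the 10 genes most like PARP14 by Pearson r, apart from genes that are not reported here. Members and lists were chosen with earlier results of these data known.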

Additional observations from a re-analysis of the deposited data

Results flagged for a closer look

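The results listed here are those for which the IFNγ response differed between backgrounds by the interaction test (edgeR, adjusted p of at most 0.05). Against the response in DMSO, the log2 response under ABBV-744 at 50 nM was higher for PARP9 by 0.67, for DTX3L by 0.41 and for PARP2 by 0.61. It was lower for PARP12 and PARP1, with differences of -0.63 and -0.82. At 500 nM it was higher for PARP9 by 0.46 and lower for PARP1, at -0.58. Against the response under ABBV-744 at 50 nM, that under ABBV-075 was higher for PARP10 by 1.56, for PARP12 by 0.83 and for PARP1 by 0.77, and lower for PARP2, at -0.57. The PARP1 response was a fall, so a lower value is a larger fall and a higher value a smaller fall. The libraries of ABBV-744 at 50 nM and of IFNγ + ABBV-744 at 50 nM, which enter 9 of these 11 results, had GC slopes of opposite sign (0.219 to 0.445 and -0.299 to -0.27). The differences of PARP1 and PARP2 between ABBV-744 at 50 nM and DMSO and the differences of PARP10 and PARP1 between the 2 inhibitors were called with the GC correction as well.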

How the results depend on the processing

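Counts here are members called per comparison by the adjusted test. DESeq2 called 0 for ABBV-744 at 50 nM against DMSO (1 by edgeR), 1 at 500 nM (2), 3 for ABBV-075 against ABBV-744 at 50 nM (5) and 1 for the IFNγ response under ABBV-744 at 500 nM against DMSO (2). With GC correction the counts were 2 for IFNγ + ABBV-744 at 50 nM against IFNγ (5), and for the IFNγ response 1 under ABBV-075 against DMSO (0), 2 under ABBV-744 at 50 nM (5), 0 at 500 nM (2) and 2 between ABBV-075 and ABBV-744 at 50 nM (4), and PARP10 in IFNγ + ABBV-075 against IFNγ + ABBV-744 at 50 nM turned from 0.06 to -0.29. With all 24 libraries in 1 fit, they were 3 for IFNγ + ABBV-744 at 50 nM against IFNγ and 1 for the response at 500 nM. Scaling by library size only gave 2 and 4 for ABBV-744 at 50 and 500 nM against DMSO and 2 for IFNγ + ABBV-744 at 500 against 50 nM (0), and shifted the median of all genes by -0.176 to 0.187 where it shifted it most. Without a filter on low counts there were 2 for ABBV-744 at 50 nM against DMSO and 1 each for the response under ABBV-075 and under ABBV-744 at 500 nM. The cause of these changes was not tested. RLE scaling, the minimum of 10 counts and both strands together moved no count by over 1.5 times.

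Leaving out 1 library gave 0 to 2 for ABBV-744 at 50 nM against DMSO, 1 to 3 at 500 nM, 3 to 5 for ABBV-075 against ABBV-744 at 50 nM, 3 to 5 for IFNγ + ABBV-744 at 50 nM against IFNγ and 0 to 2 for IFNγ + ABBV-744 at 500 against 50 nM. For the IFNγ response it gave 3 to 5 under ABBV-744 at 50 nM and 1 to 2 at 500 nM against DMSO.

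Replicate numbers are shared between groups, but the labels do not say that they mark pairs. Deviations of same-numbered libraries from their group means had r over 0.1 for all 3 numbers in 0 comparisons. The 3 values were 0.25, 0.33 and 0.06 for ABBV-744 at 500 against 50 nM, so these libraries deviated together in part. They were -0.16, -0.18 and -0.03 for ABBV-744 at 500 nM against DMSO. With the replicate number as a block the counts were 0 for ABBV-744 at 50 nM against DMSO, 1 at 500 nM and 1 for the response at 500 nM, and no other count moved by over 1.5 times. The block with GC correction gave 2 for IFNγ + ABBV-744 at 50 nM against IFNγ, 2 and 0 for the response under ABBV-744 at 50 and 500 nM, 2 for it between ABBV-075 and ABBV-744 at 50 nM, and -0.29 for PARP10 as above. Depth limits PARP15, which no library raised above 3 reads, and the PARP14 levels without IFNγ.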
